A study of Mus musculus with 9 samples.

Results

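Of the 9 RNA-seq libraries of the series, 6 belong to the comparison described here: 3 from Caki cells carrying YAP1-S127A and 3 from Caki cells carrying the empty vector MX. Caki is a human line derived from a clear cell carcinoma of the kidney. Both groups received a retrovirus-based vector, and both were selected with G418 at 200 to 400 µg/ml, so that the controls share the vector backbone and the drug. The YAP1-S127A vector encodes YAP1 with serine 127 replaced by alanine, and the empty vector (MXIV in the labels) encodes no YAP1. The labels mention drug selection and no cloning, and no label tells whether separate cultures gave the 3 libraries of each. The p-values below therefore measure only how far these libraries spread, and that spread may be technical. The series title names papillomavirus proteins, and no such samples were analysed here. The labels name mouse as the organism, whereas the gene identifiers in the count table are human Ensembl genes.

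YAP1 is a transcriptional co-activator that is held in the cytoplasm when the LATS kinases of the Hippo pathway phosphorylate it, and serine 127 is one of the sites they use. Its replacement by alanine lets YAP1 enter the nucleus, where it binds TEAD factors and raises the transcription of genes for matrix proteins, growth factor ligands and cytoskeletal proteins. Several of its best known targets, among them LATS2 and AMOTL2, act as inhibitors of the pathway. In the kidney, Hippo signalling is known for its part in nephron formation and in the fate of tubule cells.

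Total counts ran from 15789722 to 24811150 per library, and 3 counts stood for 0.107 to 0.229 CPM (counts scaled to a common library size) on effective library sizes. Correlations of log2 CPM across genes were 0.9829 to 0.9864 among the YAP1-S127A libraries, 0.9832 to 0.9874 among the MX libraries and 0.9593 to 0.9668 between the groups. Mitochondrial genes took 29.6%, 7.40% and 21.2% of counts in YAP1-S127A replicates 1 to 3 and 5.89%, 6.6% and 1.9% in MX replicates 1 to 3. Replicate 2 of YAP1-S127A thus lay close to the highest control in this respect, and each group of results below was read again with that library as the only YAP1-S127A library. The counts with replicate 2 alone are given where they moved by more than 1.5 times, and the count of each list in each direction with the mitochondrial share as a covariate lay within 3 genes of them. The kidney lineage factor PAX8 was at 302, 228 and 255 CPM in the YAP1-S127A libraries and at 279.9, 291 and 285 CPM in the MX libraries, and the keratin genes KRT8 and KRT18 and vimentin (VIM) were abundant in both groups. PAX2, HNF4A and EMX2 had at most 1 count in any of the 6 libraries, and CA9, a hypoxia target usual in clear cell carcinoma, reached no more than 0.846 CPM. Of the other clear cell carcinoma markers looked at, NDUFA4L2 and EGLN3 reached no more than 3.02 and 3.93 CPM. ANGPTL4 was not low, at 157.9 to 245 CPM in YAP1-S127A and 66.9 to 123.8 CPM in MX. Summed over 18 leukocyte markers the level was 5.90 to 9.61 CPM in YAP1-S127A and 12.1 to 15.0 CPM in MX, with at most 4 counts of PTPRC. The 13 endothelial markers summed to 3.05 to 3.58 and 2.18 to 2.78 CPM, and the 7 red cell markers to at most 0.634 and 0.751 CPM. In bulk RNA, fewer cells of a type and less RNA per cell cannot be told apart.

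Of 15492 genes tested, 2845 (18.4%) passed edgeR's quasi-likelihood test at a Benjamini-Hochberg adjusted p under 0.05, 1476 (9.53%) of them higher and 1369 (8.84%) lower in YAP1-S127A. Among these, 964 (6.22% of those tested) also differed at least 2-fold, 455 upward and 509 downward. The highest value of one group lay below the lowest of the other in 5057 genes (32.6%), which included 2744 of the 2845 that passed. Leaving out YAP1-S127A replicate 3 reduced the count that passed to 1847. With replicate 2 as the only YAP1-S127A library, which is then assumed to vary like the libraries of the other groups, 1278 genes passed, and 814 of them differed at least 2-fold. In 2803 of the 2845 genes, replicate 2 lay outside the range of the MX libraries in the direction of the change. Replicate 2 was the least changed library of its group in 876 of them (30.8%). Because replicate 2 took part in the fit that selected these genes, neither count is a separate check of it, and nor are the medians that follow. The median difference from the MX mean of the 1369 protein-coding genes that rose was 0.60, 0.70 and 0.72 log2 units in replicates 1, 2 and 3, and that of the 1264 that fell was -0.68, -0.73 and -0.78. Scaling by total counts, in which the mitochondrial reads take part, moved the median log2 fold change of all tested genes to -0.28 and gave 611 higher against 3836 lower. Directions of gene groups are therefore given relative to the median gene, with the total-count numbers wherever the larger side changed. Of the genes given below as higher, MYOF, VEGFC, ITGA6, ITGB6, LOX, CXCL16, TAP2, LSS, BCL2L1 and E2F1 did not pass under total-count scaling. NECTIN2, NECTIN3, ROBO1, CNN1, MYL9 and LAMB2, also given below as higher, were not checked singly under that scaling.

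**Figure D1:**
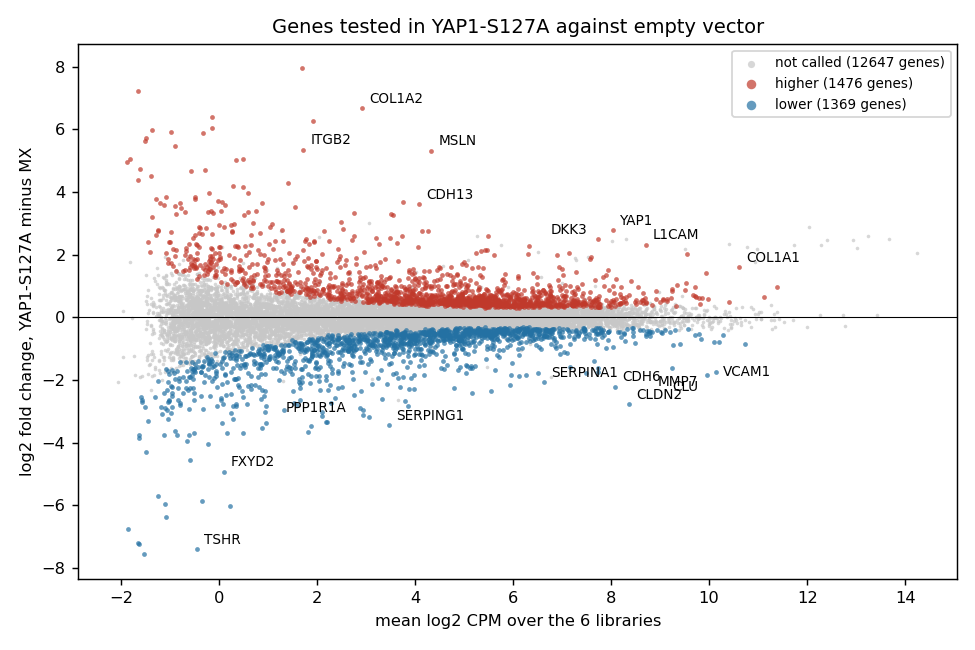
Mean log2 CPM over the 6 libraries (horizontal) against the log2 fold change of YAP1-S127A over MX (vertical), with 1 point per tested gene. The 1476 red points passed higher and the 1369 blue points lower; COL1A2, ITGB2 and MSLN stand highest among the genes labelled in the plot, and FXYD2 and TSHR lowest.

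YAP1 RNA itself, which the vector supplies, stood at 741, 692 and 631 CPM in YAP1-S127A and 108, 100.3 and 91.1 CPM in MX (log2 fold change 2.78 ± 0.16 (SE), edgeR adjusted p = 4.63e-10). The groups did not overlap, and the 3 YAP1-S127A libraries lay within a narrow range. The deposited table places YAP1 on chromosome 11 at 102110461 to 102233423, plus strand, on a human build that was not given in the sources used here. WWTR1, which encodes the paralogue TAZ, was at 253, 247 and 316 CPM in YAP1-S127A and 281, 253 and 255 CPM in MX, and its groups overlapped (log2 fold change 0.05 ± 0.12 (SE), edgeR adjusted p = 0.829).

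In a signature of direct YAP and TAZ targets, 12 of 21 tested members rose, the median log2 fold change was 0.81, and 0 fell by edgeR, DESeq2 or limma-voom, with 0 lower at an unadjusted edgeR p under 0.05 as well. The count was 11 with replicate 2 alone and 11 to 15 when any 1 library was left out. ANKRD1, a nuclear ankyrin repeat protein of muscle and stretched cells, had the largest log2 fold change of the list, 2.84. TGFB2, a ligand of the TGF-beta receptors, was at 14.9, 19.98 and 19.1 CPM in YAP1-S127A and 6.42, 5.56 and 3.79 CPM in MX (log2 fold change 1.78 ± 0.20 (SE), edgeR adjusted p = 3.05e-06). Every YAP1-S127A library exceeded the highest MX library more than 2-fold for this ligand. The receptor tyrosine kinase AXL was at 370.0, 465 and 429 CPM in YAP1-S127A and 177, 191 and 169.9 CPM in MX (log2 fold change 1.23 ± 0.12 (SE), edgeR adjusted p = 4.08e-07), without overlap. CRIM1, a transmembrane protein that binds BMPs, rose by 1.19 log2 units, and NT5E, the ecto-enzyme that makes adenosine, by 0.89. FJX1, a secreted homologue of the fly gene four-jointed, rose by 0.81 and the membrane repair protein MYOF by 0.56. GADD45A, a stress-response gene, passed over all libraries but stood at 88.2, 53 and 90.7 CPM in YAP1-S127A and 50.3, 52.3 and 47.8 CPM in MX. Its replicate 2 lay next to the highest control (log2 fold change 0.08, edgeR adjusted p = 0.853 with that library alone), and its call was lost without YAP1-S127A replicate 3 (edgeR adjusted p = 0.0616). CTGF (log2 fold change 0.35 ± 0.15, edgeR adjusted p = 0.107), PTPN14 (log2 fold change 0.10 ± 0.15, edgeR adjusted p = 0.717) and F3, the gene of tissue factor (log2 fold change -0.17 ± 0.45, edgeR adjusted p = 0.848), did not pass.

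Among components of the Hippo pathway, 9 of 33 tested genes rose and 2 fell; under total-count scaling the numbers were 5 and 4. The number that fell was 1 without MX replicate 1 or 3, 4 without MX replicate 2 and 0 without YAP1-S127A replicate 2 or 3, and also 0 with replicate 2 alone. The kinase gene LATS2 was at 38.7, 40.02 and 41.1 CPM in YAP1-S127A and 21, 16.3 and 20.1 CPM in MX (log2 fold change 1.06 ± 0.12 (SE), edgeR adjusted p = 4.28e-06), whereas LATS1 was at 24.5, 19.9 and 19.9 CPM in YAP1-S127A and 21.7, 14.6 and 18.4 CPM in MX and did not pass (log2 fold change 0.22 ± 0.15, edgeR adjusted p = 0.345). LATS2 was thus higher in each YAP1-S127A library than in any control. AJUBA, a LIM protein that holds LATS kinases in an inactive state at junctions, was at 133, 145 and 139.7 CPM in YAP1-S127A and 51.5, 52.8 and 52.6 CPM in MX (log2 fold change 1.41 ± 0.11 (SE), edgeR adjusted p = 2.32e-08). FRMD6, an upstream FERM protein, was at 64.1, 72.9 and 80.1 CPM in YAP1-S127A and 28.2, 23.5 and 21.1 CPM in MX (log2 fold change 1.58 ± 0.13 (SE), edgeR adjusted p = 4.27e-08). Neither gene showed overlap, and the 3 values of AJUBA within each group lay close together. VGLL3, a TEAD co-factor, was low in MX, at 0.642, 0.484 and 0.601 CPM, and rose to 4.42, 2.73 and 3.78 CPM (log2 fold change 2.62 ± 0.31, edgeR adjusted p = 5.21e-06). Of the TEAD genes themselves, TEAD1 did not pass (log2 fold change 0.30 ± 0.14, edgeR adjusted p = 0.14), and TEAD2 passed lower (log2 fold change -0.42 ± 0.12, edgeR adjusted p = 0.016) but lost the call without MX replicate 3 (edgeR adjusted p = 0.0654).

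**Figure D2:**
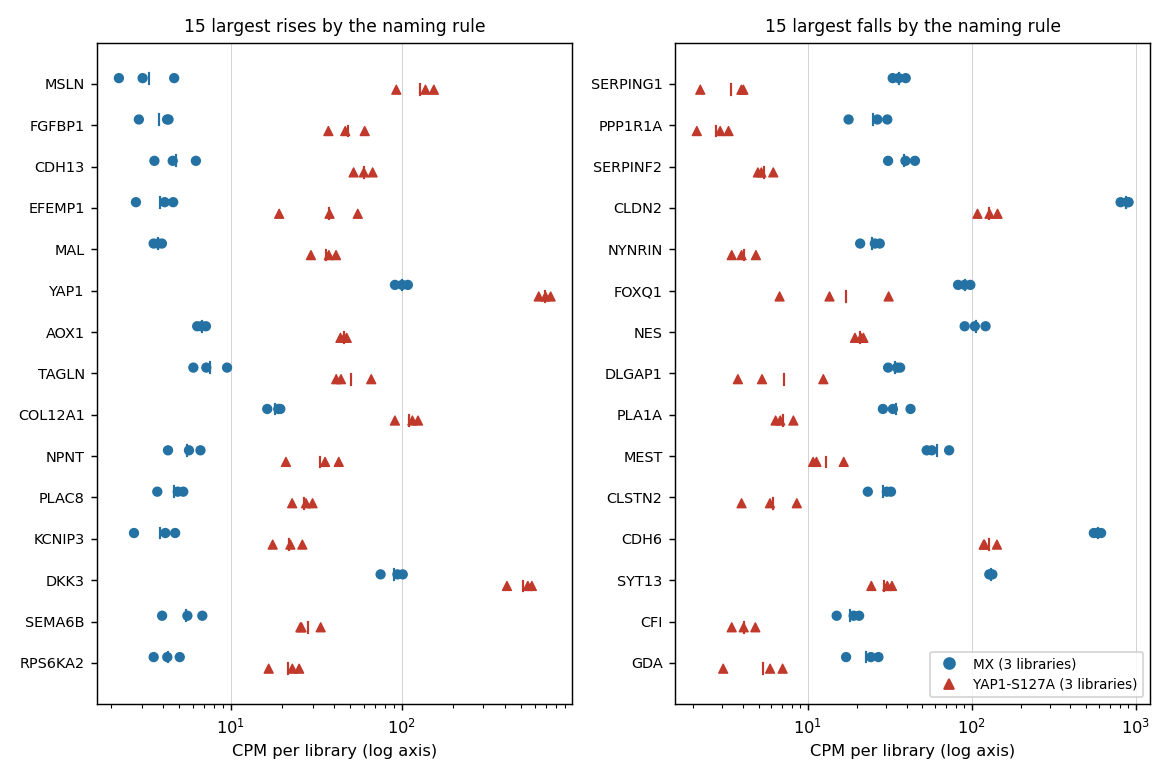
CPM in each library (horizontal, log axis) for the 15 largest rises and the 15 largest falls among protein-coding genes that passed, had groups that did not overlap and a mean log2 CPM at or above 3. Circles are MX libraries, triangles YAP1-S127A libraries and short bars group means; no row shows overlap, and FOXQ1 and DLGAP1 show the widest spread among the triangles of the right panel.

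Fibroblast growth factors and their receptors changed in both directions. Of 27 tested genes of the FGF, PDGF, VEGF and HGF families with their receptors, 13 rose and 6 fell, and 8 rose and 9 fell under total-count scaling. The ligand FGF1 was at 4.19, 4.76 and 4.15 CPM in YAP1-S127A and 1.03, 0.604 and 0.864 CPM in MX (log2 fold change 2.34 ± 0.27 (SE), edgeR adjusted p = 4.35e-06). FGF18 stood at 4.19, 2.79 and 2.94 CPM against 0.25, 0.121 and 0.338 CPM in MX (log2 fold change 3.69 ± 0.45, edgeR adjusted p = 8.47e-06). Both ligands were low in the controls and higher in all 3 YAP1-S127A libraries. FGFR2, a receptor of this family, had 3 counts over the MX libraries and 106 over the YAP1-S127A libraries, a ratio of 52.5 with a 95% counting interval of 17.5 to 259. FGFR3 went the other way, with 13.3, 12.6 and 15.3 CPM in YAP1-S127A and 35.4, 46.2 and 47.1 CPM in MX (log2 fold change -1.64 ± 0.17 (SE), edgeR adjusted p = 7.77e-07). FGFR4 was at 259, 268 and 284 CPM in YAP1-S127A and 364, 547 and 523 CPM in MX (log2 fold change -0.82 ± 0.15 (SE), edgeR adjusted p = 6.43e-04). Neither FGFR3 nor FGFR4 overlapped between the groups. HGF, the ligand of MET, was at 15.4, 8.18 and 9.51 CPM in YAP1-S127A and 31.7, 24.4 and 37.5 CPM in MX (log2 fold change -1.52 ± 0.20 (SE), edgeR adjusted p = 4.07e-05). MET itself did not pass.

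For the GAS6 and AXL pair, ligand and receptor moved together. GAS6, which binds AXL and its relatives, was at 175, 247 and 245 CPM in YAP1-S127A and 54, 98.5 and 75.2 CPM in MX (log2 fold change 1.55 ± 0.18 (SE), edgeR adjusted p = 1.36e-05). The lowest YAP1-S127A library of GAS6 stood above the highest MX library. MERTK, a second GAS6 receptor, fell by 0.65 log2 units, and TYRO3 did not pass. PDGFA (log2 fold change 0.81 ± 0.18, edgeR adjusted p = 0.00381) and VEGFC (log2 fold change 0.59 ± 0.11, edgeR adjusted p = 8.74e-04), ligands of the PDGF and lymphatic VEGF receptors, rose by less. PDGFRB was at 36.1, 58.8 and 45.4 CPM in YAP1-S127A and 27.5, 33.9 and 29.3 CPM in MX and lost its call without YAP1-S127A replicate 2 (edgeR adjusted p = 0.0568). GFRA1, the co-receptor of GDNF, was at 94.6, 175 and 158 CPM in YAP1-S127A and 58.1, 64.4 and 51.6 CPM in MX, and lost its call without MX replicate 1 (edgeR adjusted p = 0.0690).

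Of 15 tested EGF family ligands, ERBB receptors and their regulators, 4 rose and 2 fell (2 and 3 under total-count scaling), and only 2 rose without MX replicate 3 or without YAP1-S127A replicate 3, as with replicate 2 alone. HBEGF, the heparin-binding ligand, was at 94, 68.6 and 85.3 CPM in YAP1-S127A and 36.9, 34.4 and 37.6 CPM in MX (log2 fold change 1.18 ± 0.12 (SE), edgeR adjusted p = 1.10e-06). LRIG1, a membrane inhibitor of ERBB receptors, was at 64.3, 67 and 78.6 CPM in YAP1-S127A and 37.3, 39.1 and 33.8 CPM in MX (log2 fold change 0.93 ± 0.11 (SE), edgeR adjusted p = 9.66e-06). AREG, another EGFR ligand, was at 37.2, 25.2 and 34.6 CPM in YAP1-S127A and 64.7, 59.3 and 59.5 CPM in MX (log2 fold change -0.92 ± 0.16 (SE), edgeR adjusted p = 5.50e-04). TGFA fell by 0.54 log2 units. Ligands of the same receptor therefore moved in opposite directions without overlap of the groups. In the IGF axis 1 of 16 tested genes rose and 2 fell, in all 18.8%, close to the 18.4% over all tested genes. The number that fell was 1 without MX replicate 1 or 3 or YAP1-S127A replicate 2 or 3. With replicate 2 alone 3 rose and 0 fell. The riser, IGFBP4, encodes a secreted binding protein of IGFs and was at 68.8, 131 and 85.8 CPM in YAP1-S127A and 17.1, 25.9 and 21.8 CPM in MX (log2 fold change 2.14 ± 0.23 (SE), edgeR adjusted p = 4.30e-05). IGFBP3 had values of 267, 586 and 296 CPM in YAP1-S127A and 99.6, 143 and 61.2 CPM in MX, a wider spread, and did not pass (log2 fold change 1.92 ± 0.52, edgeR adjusted p = 0.0512).

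In the TGF-beta and BMP pathway 9 of 32 tested genes rose and 6 fell (8 and 10 under total-count scaling), and 3 fell with replicate 2 alone. The rising genes included ligands and extracellular antagonists. INHBA, the subunit of activin A, was at 24.9, 19.3 and 29.4 CPM in YAP1-S127A and 9.84, 9.25 and 7.66 CPM in MX (log2 fold change 1.46 ± 0.18 (SE), edgeR adjusted p = 1.06e-05). FSTL3, which binds and blocks activins, was at 298, 399.7 and 406 CPM in YAP1-S127A and 71.7, 141 and 93.6 CPM in MX (log2 fold change 1.85 ± 0.21 (SE), edgeR adjusted p = 1.73e-05). Both were higher in each YAP1-S127A library than in each control. The BMP antagonists NOG (log2 fold change 1.86 ± 0.24, edgeR adjusted p = 1.80e-05) and GREM1 (log2 fold change 2.22 ± 0.44, edgeR adjusted p = 0.00131) rose from low levels, with NOG at 5.64, 5.14 and 5.41 CPM against 1.71, 1.45 and 1.28 CPM. LRRC32, which presents latent TGF-beta at the cell surface, was at 11.9, 25.4 and 14.9 CPM in YAP1-S127A and 6.81, 8.34 and 6.65 CPM in MX (log2 fold change 1.27 ± 0.22 (SE), edgeR adjusted p = 4.58e-04). ID2, a gene that BMP signalling is known to induce, was at 7.24, 8.75 and 8.67 CPM in YAP1-S127A and 30.7, 31.1 and 27.4 CPM in MX (log2 fold change -1.85 ± 0.14 (SE), edgeR adjusted p = 2.32e-08). ID1 and BAMBI, also known BMP-induced genes, fell by 1.03 and 1.03 log2 units, while ID3 did not pass, and with replicate 2 alone the edgeR adjusted p was 0.112 for ID1 and 0.178 for BAMBI. LTBP3, a latent TGF-beta binding protein, fell from 271, 384 and 328 to 112, 154 and 112 CPM (log2 fold change -1.38 ± 0.15, edgeR adjusted p = 1.36e-06), and TGFB3 fell by 1.16.

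Of 25 tested Wnt ligands, antagonists and targets 6 rose and 6 fell (6 and 10 under total-count scaling). Among the ligands, WNT5B was at 3.81, 6.6 and 4.89 CPM in YAP1-S127A and 0.392, 0.967 and 0.225 CPM in MX (log2 fold change 3.39 ± 0.40 (SE), edgeR adjusted p = 5.37e-06). WNT10A was at 13, 14.8 and 17.7 CPM in YAP1-S127A and 1.997, 3.57 and 2.78 CPM in MX (log2 fold change 2.48 ± 0.22 (SE), edgeR adjusted p = 1.01e-07). WNT7B rose by 1.52 log2 units. No MX library reached the lowest YAP1-S127A library for these ligands. DKK1, a secreted antagonist that blocks the LRP co-receptors, was at 14.7, 13.5 and 19.96 CPM in YAP1-S127A and 3.14, 4.29 and 3.91 CPM in MX (log2 fold change 2.10 ± 0.19 (SE), edgeR adjusted p = 2.17e-07). DKK3, a divergent member of the same Dickkopf family, was at 412, 576 and 545 CPM in YAP1-S127A and 75, 101 and 94.2 CPM in MX (log2 fold change 2.50 ± 0.15 (SE), edgeR adjusted p = 8.53e-10). SFRP4, another secreted antagonist, went the other way (log2 fold change -1.14 ± 0.28, edgeR adjusted p = 0.00661; edgeR adjusted p = 0.0507 with replicate 2 alone). AXIN2, a target of the beta-catenin branch, was at 3.97, 2.03 and 3.2 CPM in YAP1-S127A and 14.2, 9.61 and 6.09 CPM in MX (log2 fold change -1.71 ± 0.28 (SE), edgeR adjusted p = 2.61e-04). LEF1 and TCF7, transcription factors of that branch, had log2 fold changes of -1.94 and -0.79 and passed. SP5, another target, rose at a low level (log2 fold change 1.44 ± 0.46, edgeR adjusted p = 0.032) and lost its call without YAP1-S127A replicate 2 (edgeR adjusted p = 0.202).

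Fibrillar collagens and proteins of the interstitial matrix were among the groups with the highest share of rises, with 17 of 34 tested members higher, 5 lower and a median log2 fold change of 0.63. The number of rises was 15 to 18 when any 1 library was left out and 17 with replicate 2 alone, whereas only 1 gene fell with replicate 2 alone. COL1A2, the second chain of type I collagen (chromosome 7, 94394561 to 94431232, plus strand), was at 47.2, 138 and 55.9 CPM in YAP1-S127A and 0.749, 0.423 and 1.05 CPM in MX (log2 fold change 6.68 ± 0.69 (SE), edgeR adjusted p = 8.58e-04). All 3 YAP1-S127A libraries lay far above the highest MX library, and replicate 2 was the highest of them. The partner chain COL1A1 was already abundant in MX, with 2055, 3742 and 2682 CPM in YAP1-S127A and 744, 1272 and 773 CPM in MX (log2 fold change 1.60 ± 0.23 (SE), edgeR adjusted p = 1.03e-04). COL11A1, a chain of a minor fibrillar collagen, was at 1.07, 6.72 and 3.52 CPM in YAP1-S127A and 0.214, 0.0604 and 0.113 CPM in MX (log2 fold change 4.72 ± 0.64 (SE), edgeR adjusted p = 4.37e-05), with replicate 1 the lowest of its group. COL5A2 rose by 0.80 log2 units. COL5A1 was at 32.8, 77.2 and 44.2 CPM in YAP1-S127A and 21.2, 26.1 and 17.4 CPM in MX and lost its call without MX replicate 1 (edgeR adjusted p = 0.0938).

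Genes of elastic fibres did not share a direction. FBLN5, needed to assemble elastic fibres, was at 2.44, 3.43 and 2.63 CPM in YAP1-S127A and 0.25, 0.242 and 0.301 CPM in MX (log2 fold change 3.38 ± 0.37 (SE), edgeR adjusted p = 1.87e-06). FBN2, a fibrillin, was at 75.3, 98.6 and 105 CPM in YAP1-S127A and 40.5, 34.5 and 31.8 CPM in MX (log2 fold change 1.38 ± 0.14 (SE), edgeR adjusted p = 1.23e-06). ELN, the gene of elastin itself, fell at a low level, from 1.96, 3.26 and 2.03 to 0.534, 0.888 and 0.893 CPM (log2 fold change -1.59 ± 0.37, edgeR adjusted p = 0.00425; edgeR adjusted p = 0.126 with replicate 2 alone). CCDC80, a secreted matrix protein, rose by 1.02 log2 units. VCAN, a large proteoglycan, was at 381, 471 and 519 CPM in YAP1-S127A and 1027, 765 and 709.7 CPM in MX (log2 fold change -0.87 ± 0.15 (SE), edgeR adjusted p = 3.81e-04). FN1, fibronectin, was at 12697, 9735 and 11824 CPM in YAP1-S127A and 12068, 10338 and 9886 CPM in MX and did not pass (log2 fold change 0.09 ± 0.17, edgeR adjusted p = 0.78). The 12 markers of fibroblasts and stroma summed to 2159 to 3973 CPM in YAP1-S127A and 784 to 1319 CPM in MX. COL1A1 made up most of these sums, and the other 11 markers summed to 104 to 230.5 and 39.7 to 47.1 CPM. Of the 8 that were tested, 6 rose and DCN and ACTA2 did not pass, while COL3A1, PDGFRA, THY1 and POSTN were below the level needed for testing. FAP, one of the 6, went from 0.321, 0.363 and 0.113 to 0.61, 1.46 and 1.26 CPM. The part of other cells in these differences was not tested.

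**Figure D3:**
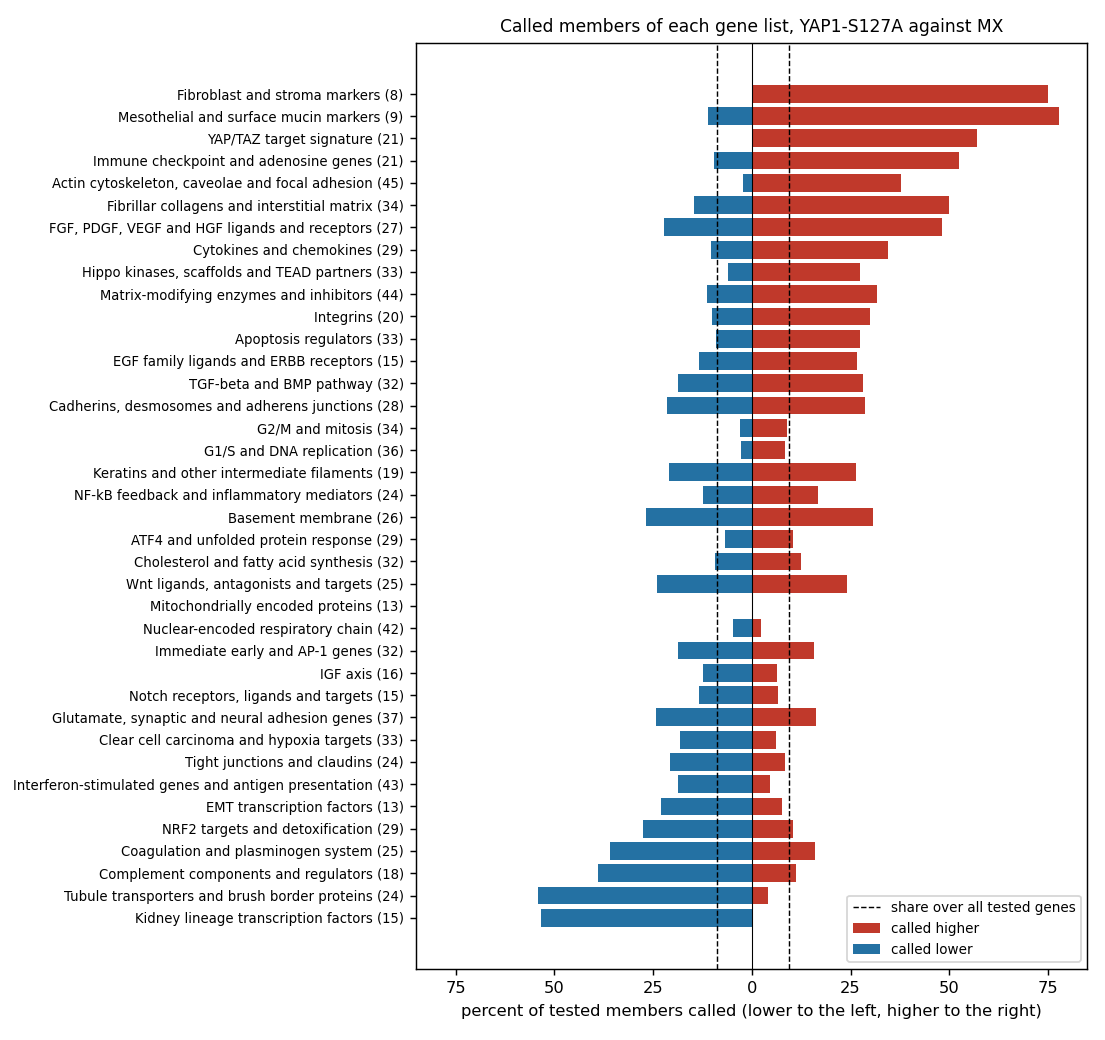
Share of tested members that passed higher (red, to the right) or lower (blue, to the left) in each gene list with at least 8 tested members, whose number is in brackets. Dashed lines mark the shares over all tested genes, 9.53% higher and 8.84% lower. Fibroblast, mesothelial and YAP/TAZ target lists extend farthest to the right, tubule transporters and kidney transcription factors farthest to the left. The lists were chosen with earlier results of these data known, so distances from the dashed lines are descriptions and not tests.

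Basement membrane genes changed chain by chain, with 8 of 26 tested members higher and 7 lower (5 and 11 under total-count scaling), and 5 rose with replicate 2 alone. Laminin chains that rose included LAMB2 and LAMB3, and those that fell were LAMA2, LAMA3, LAMA4, LAMA5, LAMB1 and LAMC1. All 4 alpha chains that passed were therefore lower, LAMA3 for example at 85.6, 77.6 and 90.3 CPM in YAP1-S127A and 187, 141 and 167 CPM in MX (log2 fold change -0.97 ± 0.15 (SE), edgeR adjusted p = 1.13e-04). NPNT, nephronectin, a ligand of integrin alpha 8 in the developing kidney, was at 21, 35.5 and 42.7 CPM in YAP1-S127A and 6.63, 5.68 and 4.28 CPM in MX (log2 fold change 2.59 ± 0.27 (SE), edgeR adjusted p = 3.19e-05). TINAGL1, a matrix protein related to cathepsins, was at 198, 261 and 262 CPM in YAP1-S127A and 41.9, 79.7 and 60.8 CPM in MX (log2 fold change 1.99 ± 0.21 (SE), edgeR adjusted p = 9.23e-06). In both genes each YAP1-S127A library exceeded each control more than 2-fold.

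Among integrins and collagen receptors 6 of 20 tested genes rose and 2 fell, and under total-count scaling 2 rose and 6 fell. The number that fell was 1 without YAP1-S127A replicate 3 and 1 with replicate 2 alone. ITGB2, the beta chain of leukocyte integrins (chromosome 21, 44885953 to 44931989, minus strand), was at 12.8, 24.4 and 21.6 CPM in YAP1-S127A and 0.285, 0.907 and 0.376 CPM in MX (log2 fold change 5.36 ± 0.33 (SE), edgeR adjusted p = 2.73e-09). The gene was barely detected in the controls and clearly present in each YAP1-S127A library. The leukocyte gene PTPRC had at most 4 counts in these libraries, CD68 at most 1 count in YAP1-S127A, and ITGAX, an alpha chain that pairs with ITGB2, fell from 7.63, 9.67 and 10.6 to 5.03, 3.62 and 4.47 CPM (log2 fold change -1.09 ± 0.21, edgeR adjusted p = 0.00105). The collagen receptor chain ITGA1 was at 16.9, 19.3 and 21.3 CPM in YAP1-S127A and 10.2, 8.34 and 6.69 CPM in MX (log2 fold change 1.19 ± 0.16 (SE), edgeR adjusted p = 3.46e-05). ITGA11, also a collagen receptor chain, was at 3.58, 17.1 and 6.09 CPM in YAP1-S127A and 2.1, 1.21 and 1.28 CPM in MX and had replicate 2 far above its group; its edgeR adjusted p was 0.0143, and 0.0745 without MX replicate 3. ITGA6 and ITGB6 rose by 0.58 and 0.61 log2 units and ITGB8 fell by 0.59.

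Of 44 tested enzymes that cut or cross-link matrix and their inhibitors, 14 rose and 5 fell. The metalloprotease ADAM8 was at 9.38, 12.7 and 10.6 CPM in YAP1-S127A and 2.32, 2.54 and 3.49 CPM in MX (log2 fold change 1.96 ± 0.20 (SE), edgeR adjusted p = 9.59e-07). ADAMTS12 was at 46.9, 50.2 and 47.2 CPM in YAP1-S127A and 23.9, 23.5 and 22.9 CPM in MX (log2 fold change 1.04 ± 0.12 (SE), edgeR adjusted p = 6.94e-06). The collagen cross-linking enzyme LOX rose by 0.84 log2 units. MMP7, matrilysin, was among the abundant genes that fell, with 382, 294 and 381 CPM in YAP1-S127A and 1076, 1412 and 765 CPM in MX (log2 fold change -1.62 ± 0.19 (SE), edgeR adjusted p = 9.37e-06). MMP1, interstitial collagenase, fell from 14.5, 15.2 and 12.8 to 1.14, 1.27 and 1.73 CPM (log2 fold change -3.32 ± 0.23, edgeR adjusted p = 6.83e-09), and MMP28 by 1.89 log2 units. No MMP1 or MMP7 value of one group entered the range of the other.

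Both plasminogen activators, the proteases that turn plasminogen into plasmin, rose, PLAU at 714, 869.8 and 940.0 CPM in YAP1-S127A and 383, 529.8 and 426 CPM in MX (log2 fold change 0.91 ± 0.14 (SE), edgeR adjusted p = 1.38e-04) and PLAT at 35.9, 57.7 and 48.6 CPM in YAP1-S127A and 19.5, 25.9 and 26.5 CPM in MX (log2 fold change 0.99 ± 0.16 (SE), edgeR adjusted p = 1.51e-04). Over the coagulation and plasminogen list 4 of 25 tested genes rose and 9 fell, 5 with replicate 2 alone. SERPINA1, alpha-1-antitrypsin, was at 49.6, 53.2 and 42.6 CPM in YAP1-S127A and 201, 223 and 182 CPM in MX (log2 fold change -2.06 ± 0.13 (SE), edgeR adjusted p = 1.88e-09). SERPINF1, pigment epithelium-derived factor, fell by 2.07 log2 units. F2RL1, a protease-activated receptor, was at 11.4, 13.3 and 17.2 CPM in YAP1-S127A and 27.7, 31.3 and 29.8 CPM in MX (log2 fold change -1.07 ± 0.15 (SE), edgeR adjusted p = 3.15e-05). Across all 17 tested genes whose symbols begin with SERPIN, 3 rose, 9 fell, and the median log2 fold change was -0.68.

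In the list of actin, caveolar and focal adhesion genes 17 of 45 tested members rose and 1 fell (9 and 7 under total-count scaling), and 12 to 16 rose when any 1 library was left out, 11 with replicate 2 alone. The number that fell was 3 without MX replicate 1, 2 without MX replicate 2 or YAP1-S127A replicate 1 and 0 without YAP1-S127A replicate 3, and 0 with replicate 2 alone. CAV2, a caveolar protein, was at 289, 348 and 388 CPM in YAP1-S127A and 179, 210.2 and 166 CPM in MX (log2 fold change 0.88 ± 0.13 (SE), edgeR adjusted p = 6.68e-05). CNN1, calponin, rose by 1.38 and MYL9, a myosin light chain, by 0.92 log2 units. ACTB, ACTG1, FLNA, VCL, ZYX, SRF and the 4 TPM genes did not pass.

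Junction genes changed without a common direction. Of 28 tested cadherins and components of desmosomes and adherens junctions, 8 rose and 6 fell; under total-count scaling 4 rose and 9 fell, and the number that rose was 4 without MX replicate 3 and 5 without YAP1-S127A replicate 2 or 3 or with replicate 2 alone. CDH1, E-cadherin, was at 5.11, 8.18 and 6.09 CPM in YAP1-S127A and 27.2, 26.7 and 20.4 CPM in MX (log2 fold change -1.93 ± 0.18 (SE), edgeR adjusted p = 3.60e-07). EPCAM, an epithelial adhesion molecule, was at 6.63, 9.13 and 6.04 CPM in YAP1-S127A and 14.9, 18.9 and 15.2 CPM in MX (log2 fold change -1.16 ± 0.18 (SE), edgeR adjusted p = 1.45e-04). NECTIN1 fell by 1.14 log2 units while NECTIN2 and NECTIN3 rose by 0.47 and 0.99. PCDH9, a protocadherin, was at 3.05, 3.68 and 3.99 CPM in YAP1-S127A and 0.927, 0.846 and 0.902 CPM in MX (log2 fold change 2.00 ± 0.28 (SE), edgeR adjusted p = 4.37e-05). CDH2, N-cadherin, did not pass, so that a fall of CDH1 without a called rise of CDH2 was recorded. Among 24 tight junction genes 2 rose and 5 fell, the latter 2 without MX replicate 1 or YAP1-S127A replicate 2 and 3 without YAP1-S127A replicate 3, while the number that rose was 1 without MX replicate 2 or 3 or YAP1-S127A replicate 1 or 3. With replicate 2 alone 1 tight junction gene rose and 3 fell. CLDN11 rose by 0.93 log2 units. L1CAM, an adhesion molecule of the immunoglobulin family, was at 798, 1009 and 1000.2 CPM in YAP1-S127A and 167, 223 and 174 CPM in MX (log2 fold change 2.32 ± 0.15 (SE), edgeR adjusted p = 3.93e-09). ALCAM, of the same superfamily, was at 234, 259 and 282 CPM in YAP1-S127A and 101, 98.5 and 83.6 CPM in MX (log2 fold change 1.45 ± 0.12 (SE), edgeR adjusted p = 7.64e-08).

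Of the transcription factors named for epithelial to mesenchymal transition, 1 of 13 tested rose and 3 fell. Without YAP1-S127A replicate 3 these were 0 and 1, and 0 rose without YAP1-S127A replicate 2 or with replicate 2 alone. SNAI1, SNAI2, ZEB1 and ZEB2 did not pass. TWIST1 (log2 fold change 0.62 ± 0.19, edgeR adjusted p = 0.0307) lost its call without YAP1-S127A replicate 2 (edgeR adjusted p = 0.125) and FOXC1 likewise (0.0703), and FOXQ1 lost it without YAP1-S127A replicate 3 (edgeR adjusted p = 0.0791). HMGA2, a chromatin protein, was at 661, 421 and 450.1 CPM in YAP1-S127A and 1012, 794 and 963 CPM in MX (log2 fold change -0.85 ± 0.16 (SE), edgeR adjusted p = 6.73e-04). Vimentin was at 2108, 2701 and 2259.8 CPM in YAP1-S127A and 2786, 3087 and 2909.7 CPM in MX and did not pass (log2 fold change -0.31 ± 0.15, edgeR adjusted p = 0.169).

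Keratins and other intermediate filaments gave 5 rises and 4 falls among 19 tested genes (3 and 7 under total-count scaling), with 2 falls for replicate 2 alone and 8 rises with the mitochondrial covariate. KRT7, a keratin of simple epithelia, was at 5.41, 9.39 and 8.98 CPM in YAP1-S127A and 1.75, 1.45 and 1.47 CPM in MX (log2 fold change 2.35 ± 0.25 (SE), edgeR adjusted p = 1.52e-06). KRT80 was at 181, 195 and 175 CPM in YAP1-S127A and 75.5, 73.5 and 91.2 CPM in MX (log2 fold change 1.2 ± 0.12 (SE), edgeR adjusted p = 5.85e-07). KRT81 had 8, 31 and 25 counts in the YAP1-S127A libraries and 2, 3 and 4 in the MX libraries (log2 fold change 3.30 ± 0.59 (SE), edgeR adjusted p = 5.44e-04), and its reads may be shared with the near-identical KRT86. KRT8 was at 2289, 3539 and 2684 CPM in YAP1-S127A and 1390.4, 2123 and 1917 CPM in MX, and lost its call without YAP1-S127A replicate 2 (edgeR adjusted p = 0.0917). NEFL, the light neurofilament, fell by 1.59 and KRT23 by 2.51 log2 units, the latter with an edgeR adjusted p of 0.0670 for replicate 2 alone.

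The list of mesothelial and surface mucin markers had 7 of 9 tested members higher and 1 lower. MSLN, mesothelin (chromosome 16, 760762 to 768865, plus strand), had the largest log2 fold change, 5.33, among the protein-coding genes of the plot of rises and falls by library. Beside it, SLPI and PI3, secreted inhibitors of leukocyte proteases, went from 0.214, 0.242 and 0.301 to 2.06, 4.63 and 7.3 CPM (log2 fold change 4.20 ± 0.46, edgeR adjusted p = 2.25e-06) and from 0.143, 0.121 and 0.263 to 4.35, 6.53 and 7.51 CPM (log2 fold change 5.04 ± 0.42, edgeR adjusted p = 5.20e-08). The transcription factor BNC1 was at 52.6, 41.2 and 46.9 CPM in YAP1-S127A and 16.2, 12.9 and 16.9 CPM in MX (log2 fold change 1.60 ± 0.14 (SE), edgeR adjusted p = 7.64e-08). LRRN4 rose by 0.88 log2 units. MUC16, the mucin that binds mesothelin, fell instead, from 1.68, 1.39 and 0.789 to 0.458, 0 and 0 CPM (log2 fold change -3.26 ± 0.74, edgeR adjusted p = 0.00419). The mesothelial markers CALB2 and WT1 were below the level needed for testing, with at most 3 counts of CALB2 in any library. HAS2 (log2 fold change 1.67 ± 0.50, edgeR adjusted p = 0.0253) lost its call without YAP1-S127A replicate 2 (edgeR adjusted p = 0.242). The 17 markers summed to 228 to 302 CPM in YAP1-S127A and 67.3 to 84.0 CPM in MX. MSLN alone made up much of the difference, at 92.7, 154 and 137 CPM in YAP1-S127A and 2.21, 4.65 and 3.04 CPM in MX.

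Transcription factors of the kidney lineage fell in 8 of 15 tested cases, and the median log2 fold change was -0.62. By edgeR, DESeq2 and limma-voom 0 rose, with 3 higher at an unadjusted edgeR p under 0.05 and 1 called higher without YAP1-S127A replicate 1 and with replicate 2 alone. Between 6 and 8 fell when any 1 library was left out, and 6 with replicate 2 alone. SALL1, a zinc finger factor of nephron progenitors, was at 4.35, 2.03 and 1.996 CPM in YAP1-S127A and 24.3, 18.8 and 17 CPM in MX (log2 fold change -2.88 ± 0.26 (SE), edgeR adjusted p = 2.03e-07). Its groups did not overlap. POU3F3, a POU factor of the loop of Henle, was at 23.4, 18.1 and 19.1 CPM in YAP1-S127A and 58.4, 72.7 and 52.3 CPM in MX (log2 fold change -1.60 ± 0.14 (SE), edgeR adjusted p = 9.21e-08). ESRRG, an orphan nuclear receptor, was at 2.44, 1.84 and 1.79 CPM in YAP1-S127A and 9.7, 6.53 and 8.003 CPM in MX (log2 fold change -2.02 ± 0.23 (SE), edgeR adjusted p = 4.63e-06). LHX1 fell by 0.62 log2 units. IRX3 (log2 fold change -1.47 ± 0.43, edgeR adjusted p = 0.0218) and EYA1 (log2 fold change -1.07 ± 0.35, edgeR adjusted p = 0.0402), both at low levels, lost their calls. That of IRX3 was lost without YAP1-S127A replicate 1 (edgeR adjusted p = 0.0917) and that of EYA1 without replicate 3 (edgeR adjusted p = 0.162). PAX8 did not pass (log2 fold change -0.12 ± 0.12, edgeR adjusted p = 0.525).

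Transporters and brush border proteins of the tubule fell in 13 of 24 tested cases and rose in 1 (2 without MX replicate 2), with a median log2 fold change of -0.66. The number that fell was 10 to 12 when any 1 library was left out and 8 with replicate 2 alone. FXYD2, the gamma subunit of the sodium pump, was at 0.153, 0.254 and 0.0525 CPM in YAP1-S127A and 4.39, 5.5 and 4.17 CPM in MX (log2 fold change -4.93 ± 0.43 (SE), edgeR adjusted p = 1.17e-07). The phosphate carriers SLC34A2 (log2 fold change -2.74 ± 0.45, edgeR adjusted p = 8.64e-04) and SLC17A1 (log2 fold change -1.60 ± 0.23, edgeR adjusted p = 5.16e-05) fell, the former from 8.63, 8.4 and 7.4 to 0.305, 1.08 and 2.05 CPM. FOLR1, a folate receptor, fell by 1.76 log2 units (edgeR adjusted p = 0.122 with replicate 2 alone). VCAM1, an adhesion molecule that marks some tubule cells and is also induced by NF-kB, was at 618, 567 and 658 CPM in YAP1-S127A and 2139.7, 2235 and 1799.9 CPM in MX (log2 fold change -1.74 ± 0.14 (SE), edgeR adjusted p = 4.54e-08). The 3 YAP1-S127A libraries of VCAM1 lay at about the same level, far below the controls. CA12, a carbonic anhydrase, was at 0.839, 1.4 and 0.473 CPM in YAP1-S127A and 9.09, 7.13 and 4.7 CPM in MX and lost its call without YAP1-S127A replicate 3 (edgeR adjusted p = 0.110).

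Among 18 tested complement genes 2 rose and 7 fell, and 4 fell without YAP1-S127A replicate 3. Only 1 rose when any 1 of the 6 libraries was left out, and 1 rose and 4 fell with replicate 2 alone. Regulators of the cascade were among those that fell. CFI, the protease that cleaves C3b, was at 3.43, 4.06 and 4.78 CPM in YAP1-S127A and 19, 20.6 and 15 CPM in MX (log2 fold change -2.14 ± 0.20 (SE), edgeR adjusted p = 2.79e-07). CLU, clusterin, was at 533, 581 and 471 CPM in YAP1-S127A and 1667, 2073 and 1918 CPM in MX (log2 fold change -1.84 ± 0.14 (SE), edgeR adjusted p = 2.32e-08). CFI and CLU were lower in all 3 YAP1-S127A libraries than in any control. CD55, a membrane regulator of complement, rose by 0.67 log2 units. C4A and C4B are near-identical copies whose reads cannot be assigned with certainty, and both lost their calls without YAP1-S127A replicate 3 (edgeR adjusted p = 0.0849 and 0.0707). C5 also lost its call there (edgeR adjusted p = 0.235).

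Of 29 tested cytokines and chemokines 10 rose and 3 fell, and 5 rose without MX replicate 1, 6 without MX replicate 3 and 5 with replicate 2 alone. CXCL6, a neutrophil chemokine, was at 1334, 1673 and 1833 CPM in YAP1-S127A and 599.8, 718 and 508 CPM in MX (log2 fold change 1.41 ± 0.18 (SE), edgeR adjusted p = 1.48e-05), higher in every YAP1-S127A library. CXCL16 rose by 0.62 log2 units. CXCL8 was at 323, 160.0 and 433 CPM in YAP1-S127A and 83, 86.4 and 48.9 CPM in MX, with replicate 2 well below its group; its edgeR adjusted p was 0.0252 over all libraries, 0.0743 without MX replicate 3 and 0.193 with replicate 2 alone. CXCL3 (log2 fold change 1.04 ± 0.23, edgeR adjusted p = 0.00292) had an edgeR adjusted p of 0.213 with replicate 2 alone. The fallers included IL18, at 226, 150.1 and 199.6 CPM in YAP1-S127A and 342, 364 and 390.1 CPM in MX (log2 fold change -0.93 ± 0.14 (SE), edgeR adjusted p = 7.41e-05). IL1B fell too (log2 fold change -1.51 ± 0.34, edgeR adjusted p = 0.00369; edgeR adjusted p = 0.0907 with replicate 2 alone), and both are cytokines of the IL-1 family. The acute phase gene SAA1 was at 1091, 971 and 1231 CPM in YAP1-S127A and 442, 666 and 438 CPM in MX (log2 fold change 1.09 ± 0.17 (SE), edgeR adjusted p = 1.12e-04), although reads may be shared with SAA2. NFKB1, NFKBIA, TNFAIP3, BIRC3 and ICAM1, known NF-kB targets, did not pass, and 4 of 24 genes of that list rose while 3 fell (1 and 5 under total-count scaling). Without YAP1-S127A replicate 3 only 1 of that list fell, and with replicate 2 alone only 1 rose.

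Immediate early and AP-1 genes gave 5 rises and 6 falls among 32 tested, and 8 rises without YAP1-S127A replicate 2. ATF3, a stress-induced AP-1 partner, was at 34.2, 29.9 and 41 CPM in YAP1-S127A and 13.3, 18 and 14 CPM in MX (log2 fold change 1.23 ± 0.15 (SE), edgeR adjusted p = 7.47e-06). KLF5, a Krüppel-like factor, was at 43.5, 36.2 and 41.8 CPM in YAP1-S127A and 20.3, 16.7 and 17.2 CPM in MX (log2 fold change 1.16 ± 0.13 (SE), edgeR adjusted p = 2.25e-06). Neither overlapped with MX. NR4A1, an orphan receptor, rose from 0.856, 1.09 and 1.47 to 3.28, 5.65 and 3.36 CPM (log2 fold change 1.84 ± 0.31, edgeR adjusted p = 2.61e-04). DUSP1, a phosphatase of MAP kinases, was at 207, 82.7 and 278 CPM in YAP1-S127A and 33.3, 54 and 30.8 CPM in MX, with replicate 2 far below its group, and lost its call without MX replicate 3 (edgeR adjusted p = 0.0781). Of the feedback genes of ERK signalling DUSP5, SPRY2 and SPRED1 did not pass, whereas DUSP6 was at 20.5, 7.1 and 13.8 CPM in YAP1-S127A and 49.1, 37.9 and 39.1 CPM in MX (log2 fold change -1.62 ± 0.29 (SE), edgeR adjusted p = 0.00368) and SPRY4 at 8.85, 6.47 and 8.35 CPM in YAP1-S127A and 13.1, 12 and 13.5 CPM in MX (log2 fold change -0.71 ± 0.16 (SE), edgeR adjusted p = 0.00301). EGR2 fell by 1.82 log2 units at a low level. FOS, JUN, EGR1 and MYC did not pass. CXCL8, DUSP1 and GADD45A were lowest in the YAP1-S127A library with the lowest mitochondrial share. With that share as a covariate their log2 fold changes were 1.04, 1.14 and 0.17 (edgeR adjusted p = 0.0852, 0.0843 and 0.667). Whether the share had a part in causing their differences was not tested.

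**Figure D4:**
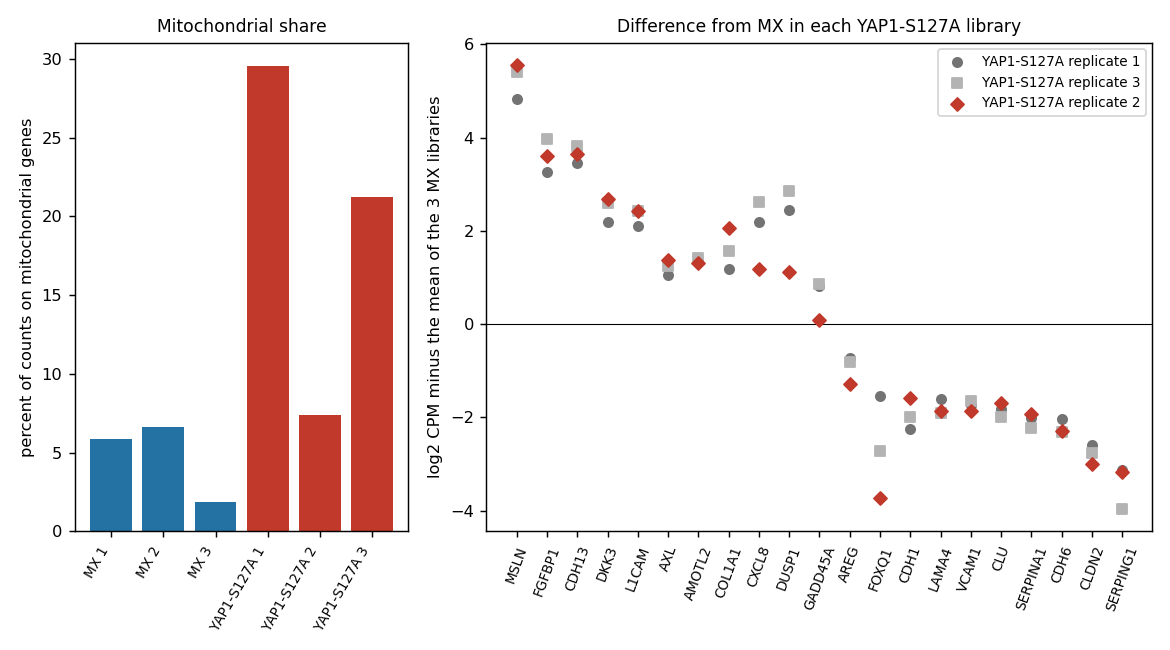
Left, percent of counts on mitochondrial genes in each library (bars from 0). Right, log2 CPM of 21 genes in each YAP1-S127A library minus the mean of the 3 MX libraries, with replicate 2 as red diamonds. Replicate 2 lies near its group for most genes shown, nearer to 0 for CXCL8, DUSP1 and GADD45A, and farther from 0 for FOXQ1. The genes were chosen after their values were seen.

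Among immune checkpoint and adenosine genes 11 of 21 tested rose and 2 fell, and 7 rose without YAP1-S127A replicate 2 or replicate 3, 6 with replicate 2 alone. The number that fell was 1 without MX replicate 3 or YAP1-S127A replicate 1 and 0 with replicate 2 alone. VSIR, the checkpoint protein VISTA, was at 55, 72.2 and 67.1 CPM in YAP1-S127A and 20.8, 30.3 and 28 CPM in MX (log2 fold change 1.30 ± 0.15 (SE), edgeR adjusted p = 3.03e-06). NT5E was at 115, 139.7 and 142 CPM in YAP1-S127A and 65.7, 76.5 and 72.9 CPM in MX (log2 fold change 0.89 ± 0.12 (SE), edgeR adjusted p = 3.91e-05), and the adenosine receptor ADORA2B was at 9.99, 13.3 and 10.1 CPM in YAP1-S127A and 5.56, 6.47 and 5.6 CPM in MX (log2 fold change 0.93 ± 0.16 (SE), edgeR adjusted p = 4.43e-04). An enzyme that makes adenosine and a receptor that binds it were thus both higher without overlap. MICA, a ligand of the killer cell receptor NKG2D, rose by 0.78 and ULBP2, another such ligand, by 1.43 log2 units. VTCN1, B7-H4, rose from 0.285, 0.181 and 0.338 to 1.14, 2.16 and 0.998 CPM (log2 fold change 2.34 ± 0.49, edgeR adjusted p = 0.00227). LGALS9, galectin-9, fell at a low level (log2 fold change -1.78 ± 0.34, edgeR adjusted p = 0.00101; edgeR adjusted p = 0.088 with replicate 2 alone), and CD274, PD-L1, did not pass. PDCD1LG2 (log2 fold change 1.08 ± 0.36, edgeR adjusted p = 0.043) lost its call without MX replicate 2 (edgeR adjusted p = 0.126).

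Interferon-stimulated and antigen presentation genes gave 2 rises and 8 falls among 43, with 4 falls once YAP1-S127A replicate 3 was left out, 5 once replicate 1 was, and 2 with replicate 2 alone. The number that rose was 1 without MX replicate 3 or YAP1-S127A replicate 2 or 3 and 4 without YAP1-S127A replicate 1. IFI16, a DNA sensor, was at 97.4, 84.4 and 92 CPM in YAP1-S127A and 187, 162 and 167 CPM in MX (log2 fold change -0.91 ± 0.12 (SE), edgeR adjusted p = 3.13e-05). IFITM1, an antiviral membrane protein, fell from 2.82, 4.11 and 2.71 to 0.381, 0.507 and 0.683 CPM (log2 fold change -2.55 ± 0.36, edgeR adjusted p = 4.55e-05). TAP2, a peptide transporter of antigen presentation, was at 44.5, 57.6 and 58.4 CPM in YAP1-S127A and 32.3, 40.1 and 32.5 CPM in MX (log2 fold change 0.62 ± 0.13 (SE), edgeR adjusted p = 0.00284). HLA-B, HLA-C and B2M did not pass, and neither did ISG15 or IFIT1.

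Metabolic lists are given beside the 18.4% of all genes that passed. In hypoxia and clear cell carcinoma targets 2 of 33 tested genes rose and 6 fell, and 1 fell without YAP1-S127A replicate 3 and 3 without MX replicate 2. The number that rose was 1 without MX replicate 2 or 3. With replicate 2 alone 1 hypoxia gene rose and 1 fell. PGK1, LDHA, SLC2A1, NDRG1 and VHL did not pass. Of NRF2 targets and detoxification genes 3 of 29 rose and 8 fell, and 5 fell without MX replicate 3 or without either of YAP1-S127A replicates 1 and 2. None rose without YAP1-S127A replicate 1, and 1 rose when YAP1-S127A replicate 2, MX replicate 1 or MX replicate 2 was left out. For replicate 2 alone 0 rose and 4 fell. UGDH, which makes UDP-glucuronate, was at 285, 215 and 224 CPM in YAP1-S127A and 436, 352 and 441 CPM in MX (log2 fold change -0.76 ± 0.13 (SE), edgeR adjusted p = 3.81e-04). AKR1C1, whose reads may be shared with its close AKR1C copies, fell by 1.17 log2 units. HMOX1, GCLM and TXNRD1, classical NRF2 targets, did not pass. Cholesterol and fatty acid synthesis gave 4 rises and 3 falls among 32 (2 and 9 under total-count scaling), and 1 rise and 0 falls with replicate 2 alone. Rises numbered 2 without YAP1-S127A replicate 3. Falls numbered 0 without YAP1-S127A replicate 2, and 1 when YAP1-S127A replicate 1, MX replicate 2 or MX replicate 3 was left out. LSS, lanosterol synthase, was at 43.9, 45.7 and 51.8 CPM in YAP1-S127A and 29.1, 32 and 34.2 CPM in MX (log2 fold change 0.57 ± 0.13 (SE), edgeR adjusted p = 0.00332; 0.105 with replicate 2 alone). In the ATF4 and unfolded protein list 3 of 29 rose and 2 fell (1 and 7 under total-count scaling). The rises were 1 without MX replicate 3 or YAP1-S127A replicate 3, and the falls 1 without YAP1-S127A replicate 1 or 3; both were 1 with replicate 2 alone. PSAT1, an enzyme of serine synthesis, was at 66.7, 65.4 and 67.4 CPM in YAP1-S127A and 127, 119.5 and 140.0 CPM in MX (log2 fold change -0.95 ± 0.11 (SE), edgeR adjusted p = 4.95e-06). The other genes of that list that passed, ATF3 apart, lost their calls without at least 1 library. ALDH1A1, a retinal dehydrogenase, was outside these lists and was at 129, 107 and 118 CPM in YAP1-S127A and 415, 360.2 and 396 CPM in MX (log2 fold change -1.73 ± 0.12 (SE), edgeR adjusted p = 9.02e-09).

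In the cell cycle, 3 of 36 tested genes of the G1/S list and 3 of 34 of the G2/M list rose, and 1 of each fell, beside 18.4% over all genes. In the G1/S list the rises were 5 without MX replicate 1 or 3 and the falls 0 without MX replicate 2 or 3 or YAP1-S127A replicate 2 or 3. In the G2/M list the rises were 1 without YAP1-S127A replicate 3, and the falls 0 without MX replicate 1 or 3 or YAP1-S127A replicate 1, 2 or 3. In both lists 2 rose and 0 fell with replicate 2 alone. E2F1, a transcription factor of S phase entry, was at 56.4, 62.5 and 59.7 CPM in YAP1-S127A and 31.1, 40.8 and 43.3 CPM in MX (log2 fold change 0.64 ± 0.13 (SE), edgeR adjusted p = 0.00166). ECT2, an exchange factor needed for cytokinesis, was at 144, 133 and 144 CPM in YAP1-S127A and 90.1, 77.7 and 83.4 CPM in MX (log2 fold change 0.74 ± 0.11 (SE), edgeR adjusted p = 6.33e-05). MKI67, the proliferation antigen, was at 95.8, 96.9 and 83.5 CPM in YAP1-S127A and 149, 104 and 111 CPM in MX, and its call, lower, was lost without YAP1-S127A replicate 3 (edgeR adjusted p = 0.207). No gene of the MCM complex (MCM2 to MCM7) passed, and neither did CCNA2, CCNB1 or TOP2A. Under total-count scaling 9 genes of each list passed lower. Of 33 tested apoptosis regulators 9 rose and 3 fell (2 and 10 under total-count scaling), and 4 rose with replicate 2 alone. The number that fell was 1 without YAP1-S127A replicate 3 and 1 with replicate 2 alone. BCL2L1, an inhibitor of apoptosis, was at 149, 165 and 147 CPM in YAP1-S127A and 100.3, 119 and 106 CPM in MX (log2 fold change 0.50 ± 0.12 (SE), edgeR adjusted p = 0.00552). BAK1, a pore-forming effector, was at 57.7, 68.4 and 51.6 CPM in YAP1-S127A and 29, 39.4 and 40.1 CPM in MX (log2 fold change 0.71 ± 0.14 (SE), edgeR adjusted p = 0.00146).

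Genes of neural adhesion, guidance and synapses gave 6 rises and 9 falls among 37 tested, with 3 higher without YAP1-S127A replicate 3. With replicate 2 alone 3 rose and 5 fell. The guidance ligand SLIT2 was at 15.6, 27.4 and 21.5 CPM in YAP1-S127A and 2.71, 1.69 and 1.92 CPM in MX (log2 fold change 3.33 ± 0.22 (SE), edgeR adjusted p = 4.97e-09), and its receptor ROBO1 rose by 0.47 log2 units. KCNIP3, a calcium sensor that binds potassium channels, was at 26.2, 22.3 and 17.5 CPM in YAP1-S127A and 2.71, 4.71 and 4.13 CPM in MX (log2 fold change 2.53 ± 0.20 (SE), edgeR adjusted p = 2.73e-08). Those that fell included UNC5C, a netrin receptor, at 0.229, 0.698 and 0.63 CPM in YAP1-S127A and 4.1, 3.93 and 3.12 CPM in MX (log2 fold change -2.78 ± 0.35 (SE), edgeR adjusted p = 1.24e-05). CLSTN2, calsyntenin 2, was at 5.87, 8.56 and 3.94 CPM in YAP1-S127A and 32.2, 30.3 and 23.2 CPM in MX (log2 fold change -2.23 ± 0.22 (SE), edgeR adjusted p = 1.22e-06). SYT13, an atypical synaptotagmin, stood at 24.4, 32.6 and 30.5 CPM in YAP1-S127A and 134, 131 and 128 CPM in MX (log2 fold change -2.16 ± 0.12 (SE), edgeR adjusted p = 4.63e-10). The 3 values of SYT13 in each group lay close together and far from the other group.

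Several genes outside the lists met the naming rule through the size or precision of their change. NCEH1, a cholesterol ester hydrolase, was at 321, 342 and 409 CPM in YAP1-S127A and 148, 157 and 132 CPM in MX (log2 fold change 1.30 ± 0.12 (SE), edgeR adjusted p = 3.74e-07). PEA15, a protein that binds ERK, was at 508, 558 and 520.2 CPM in YAP1-S127A and 247, 270.3 and 288 CPM in MX (log2 fold change 0.98 ± 0.11 (SE), edgeR adjusted p = 4.35e-06). RPS6KA2, a ribosomal S6 kinase, rose by 2.35 log2 units and SEMA6B, a transmembrane semaphorin, by 2.38. PPP1R1A, an inhibitor of protein phosphatase 1, was at 3.28, 2.92 and 2.1 CPM in YAP1-S127A and 17.7, 30.5 and 26.6 CPM in MX (log2 fold change -3.19 ± 0.23 (SE), edgeR adjusted p = 1.00e-08). MEST, an imprinted gene, was at 11.3, 16.6 and 10.8 CPM in YAP1-S127A and 53.1, 72.8 and 57 CPM in MX (log2 fold change -2.24 ± 0.17 (SE), edgeR adjusted p = 2.13e-08). PLA1A, a phospholipase, fell by 2.29 log2 units. MSC, the helix-loop-helix repressor musculin, was at 132, 123 and 115 CPM in YAP1-S127A and 278, 489.7 and 352 CPM in MX (log2 fold change -1.60 ± 0.16 (SE), edgeR adjusted p = 6.74e-07). None of these genes overlapped between the groups, but the naming rule required this of RPS6KA2, SEMA6B, PPP1R1A, MEST and PLA1A. Over all tested genes 32.6% did not overlap. MARCKSL1, a membrane protein that binds actin, fell by 1.13 and GDA, guanine deaminase, by 2.11 log2 units.

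Some genes were nearly silent in one group. Among protein-coding genes that passed, 131 had all 3 libraries of a group under 0.5 CPM, 69 of them higher and 62 lower in YAP1-S127A. The filter on low counts keeps such genes through the libraries where they are higher, so a difference between groups is partly built in. Over all tested protein-coding genes 20.2% passed. The number tested with a group that low was not counted, so no comparable share can be given. RPE65, the retinoid isomerase, had 0 counts in the MX libraries and 46 in the YAP1-S127A libraries, which made it at least 5.17-fold higher against a floor of 3 counts per library. It was below the level needed for testing with replicate 2 alone, so its change could not be checked there. SOX17, an endodermal and endothelial transcription factor, had 1 count against 60 (ratio 89.2, 95% counting interval 15.4 to 3580). CHRDL1, a BMP antagonist, had 2 against 100 (ratio 74.3, interval 20.04 to 622). The convertase PCSK5 went from 0.107, 0.121 and 0 to 3.74, 6.6 and 4.73 CPM (log2 fold change 6.03 ± 0.51, edgeR adjusted p = 7.66e-08). TSHR, the thyrotropin receptor, showed the reverse, with 313 counts in MX and 1 in YAP1-S127A (ratio 211, interval 37.5 to 8345). GJB1, a connexin, MAN1C1, a mannosidase, and GABRP, a GABA receptor subunit, had 0 counts in YAP1-S127A and were at least 4.06-fold, 4.05-fold and 3.01-fold lower. GABRP had an edgeR adjusted p of 0.0507 with replicate 2 alone, and MAN1C1 one of 0.051 with the mitochondrial share as a covariate. The intervals and floors cover counting error only.

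**Figure D5:**
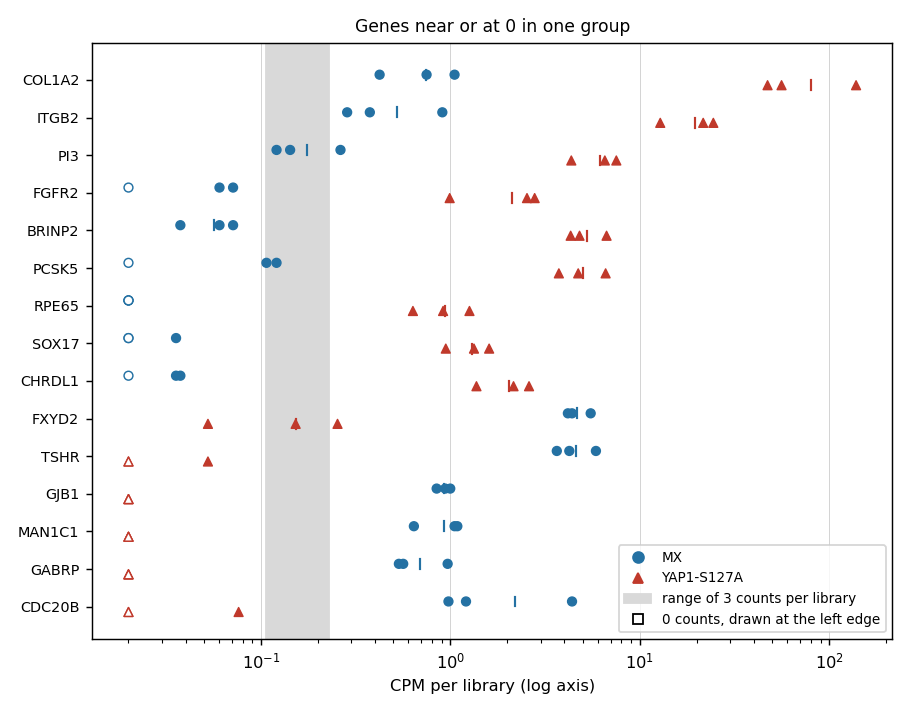
CPM in each library (horizontal, log axis) for 15 genes that were near or at 0 in one group. Circles are MX libraries, triangles YAP1-S127A libraries, short bars group means where no library was at 0, open symbols libraries with 0 counts, and the grey band what 3 counts stand for in the 6 libraries; COL1A2 and ITGB2 reach far above 10 CPM in YAP1-S127A, while GJB1, MAN1C1 and GABRP have no count there.

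Outside protein-coding genes, 46 of 558 tested lincRNAs rose and 38 fell (15.1% in all). AL161431.1 was at 36.9, 38.2 and 55.3 CPM in YAP1-S127A and 0.214, 0.363 and 0 CPM in MX (log2 fold change 7.95 ± 0.79 (SE), edgeR adjusted p = 5.43e-04). LINC02532 fell from 43.5, 35.6 and 27.9 to 8.54, 3.49 and 5.04 CPM (log2 fold change -2.67 ± 0.24, edgeR adjusted p = 7.43e-07). The antisense gene CYP1B1-AS1 fell by 1.63 log2 units, and its reads cannot be told apart from those of its partner as the strand setting of the counting was not given in the sources used here. The 13 protein genes of the mitochondrial genome had a median log2 fold change of 2.32. By edgeR and limma-voom 0 passed, by DESeq2 13 passed higher, and at an unadjusted edgeR p under 0.05 13 were higher. Without YAP1-S127A replicate 2 edgeR called 1 of them higher. MT-CO1, a subunit of cytochrome oxidase, was at 71592, 16986 and 51040.3 CPM in YAP1-S127A and 13866, 15533 and 4107 CPM in MX (log2 fold change 2.06 ± 0.78 (SE), edgeR adjusted p = 0.131). Of 42 nuclear genes of the respiratory chain 1 rose and 2 fell, and each of these calls was lost without at least 1 of the libraries and with replicate 2 alone.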

How the data were processed

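The authors deposited raw read counts per gene as 1 table with a column for each library, and the totals of its whole numbers differ between libraries, so no normalization is visible. The gene length in bases that the authors deposited beside them is of unit other and was not used. Per the labels' protocols, total RNA was extracted and stranded messenger RNA libraries were made; the submitters' processing notes list HISAT2, Cufflinks, Salmon 1.9.0 and the mouse build GRCm39 without a role for any of them. The strand setting, the counter and the human build were not given in the sources used here.

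From the 58735 genes, edgeR 4.0.16 in R 4.3.3 kept 15492 by filterByExpr. All 9 libraries were scaled by TMM and fitted by group alone with robust quasi-likelihood dispersions, so that the third group of the series shares the estimate of the spread. YAP1-S127A was tested against MX with 3 libraries per group, and the two-sided p-values were adjusted by the Benjamini-Hochberg method across the 15492 genes. Each SE follows from the test itself, as the size of the log2 fold change over the root of F. CPM rest on TMM-scaled library sizes, and log2 CPM on a prior count of 2. The fit was tested on simulated data.

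The 41 gene lists (1222 entries, 1 matched by another name) and the rule for named genes were chosen with earlier results of these data known. The rule took YAP1 and 4 known targets, and the 15 largest rises and falls at a mean log2 CPM of at least 3 without overlap. It further took the 10 smallest p in each direction at a mean of at least 7, up to 5 called members per list, and 5 per direction of non-coding genes (mean of at least 1) and of genes with a group under 0.5 CPM. It gave 213 genes, not all used, and a few genes are not reported here. A further 71 were given outside the rule after their values were seen, among them FGF18, GAS6, FGFR4, HGF, COL5A2, COL11A1, PLAU, PLAT, NOG, GREM1, AXIN2, LEF1, EPCAM, MUC16, CXCL8, DUSP1, ID1, BAMBI, VCAN and FN1. Other list members were named beyond these 71, such as ROBO1, NECTIN2, NECTIN3, MERTK, CNN1, MYL9, LAMB2, LAMA2, LAMA5, LAMB1 and LAMC1. Their calls were not checked singly in the alternatives. Alternatives were other scalings, filters and tools, a replicate block, the mitochondrial share as a covariate, replicate 2 alone, and leaving out each library. Intervals are exact and conditional on the summed counts, at a confidence of 95%.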

Additional observations from a re-analysis of the deposited data

How the results depend on the processing

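The count of 2845 genes was 1631 when glmTreat required a minimum fold of 1.2, 1405 with the mitochondrial share as a covariate, 1278 with YAP1-S127A replicate 2 alone and 4447 under total-count scaling. It ranged from 1847 to 3079 when any 1 library was left out, and was 3091 with DESeq2 1.42.0 and 2851 with limma-voom 3.58.1. Rises made up 51.88% of the calls, and 13.74% under total-count scaling. The count at 2-fold or more ran from 814 to 1286 over all of these. No pairing by replicate number was used. The correlations of same-numbered libraries' deviations were 0.204, 0.0769 and -0.178, and those of differently numbered libraries ran from -0.254 to 0.207. So few correlations cannot decide whether the numbers pair the samples. A fit with the replicate number as a block gave 3426 genes, 981 of them at least 2-fold. The mitochondrial share was 14.6 percentage points higher in YAP1-S127A (exact two-sided permutation p = 0.1, the smallest that 3 against 3 can give), 9.52 to 20.6 when any 1 library was left out. In the counts of kept calls that follow, a run that did not test a gene, or gave it no adjusted p, was passed over. Such a gene could therefore count as kept without having been in every run, and non-coding genes were absent from the run on protein-coding genes. Of 271 named genes that passed, 190 kept call and direction in every alternative run, and 200 in every fit without 1 library and with replicate 2 alone.

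Signs reversed for 5 named genes, none of which had passed, and the cause was not tested. Total-count scaling gave PTPN14 -0.18, LATS1 -0.071, FN1 -0.21 and WWTR1 -0.23. The mitochondrial covariate gave FN1 -0.25 and WWTR1 -0.038, and replicate 2 alone gave -0.15 and -0.093. When any 1 library was left out, PTPN14 ran from -0.061 (without MX replicate 2) to 0.31, F3 from -0.32 to 0.025 (without MX replicate 2), FN1 from -0.00011 (without YAP1-S127A replicate 1) to 0.19 and WWTR1 from -0.064 (without YAP1-S127A replicate 3) to 0.11. Depth limits genes under 0.229 CPM, what 3 counts stand for in the shallowest library by effective size.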

Other observations

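Chromosome 6 carried 141 rises and 45 falls among 796 tested genes (17.7% and 5.65%, beside 9.53% and 8.84% over all genes), with a median log2 fold change of 0.16. Chromosome 17 carried 53 rises and 104 falls among 973 with a median of -0.10. Neither was alone in this. Rises also outnumbered falls on chromosomes 3 (14.6% and 6.11%), 9 (13% and 5.41%) and 21 (13.6% and 1.95%), among others. Falls outnumbered rises on chromosomes 11 (11.8% and 7.97%) and 12 (11.9% and 7.78%), among others. Genes of transcription factor families gave 60 rises and 111 falls among 1093 tested, and all other genes 1416 rises and 1258 falls among 14399. Zinc finger genes with ZNF symbols passed in 6.48% of 432 cases, HOX genes gave 2 rises and 7 falls among 34, and potassium channel genes with KCN symbols 5 rises and 11 falls among 36. These shares are descriptions over the members of each class and were not tested. Of 29 mitochondrial genes tested, 7 rose (24.1%, beside 18.4% of all genes that passed in either direction), and each of these was a transfer RNA gene. The mitochondrial share was 29.6% and 21.2% in YAP1-S127A replicates 1 and 3 and 7.40% in replicate 2. The calls of these transfer RNA genes were not checked singly with replicate 2 alone or with that share as a covariate.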
